A study of Mus musculus with 28 samples.

Results

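The transcripts of 8 receptors through which T cells take in costimulatory signals were followed in CD4+ T cells of the mouse small intestine: Tnfrsf4, Tnfrsf9, Tnfrsf18, Tnfrsf1b, Cd27 and Tnfrsf25 of the tumour necrosis factor (TNF) receptor family, and the immunoglobulin family receptors Cd28 and Cd226. They were chosen by symbol from the 25124 genes of the deposited expression table, and 8 of 8 were found and passed the low-value filter that left 12182 genes for testing. Cells of the small intestinal lamina propria (SILP) were sorted as live CD45+ CD90.2+ TCRb+ CD4+ cells, and their RNA was sequenced in bulk in 28 libraries. Every animal, controls included, was a T-bet-ZsGreen mouse, which carries a fluorescent reporter for the transcription factor T-bet. Some mice were colonised and specific-pathogen-free (SPF), and others were germ-free (GF) and lacked gut microbes. They received either aCD3, which binds the CD3 chains that signal for the antigen receptor, or an isotype antibody as control. SPF mice gave 6 isotype and 6 aCD3 libraries, with 3 of each sex in both groups. GF mice gave 10 isotype libraries, 5 of each sex, and 6 aCD3 libraries, 1 from a female and 5 from males. Ages, antibody dose and the time of sampling are not given in the sources used here. The labels do not say that replicates are separate animals, so p-values measure the spread between these samples.

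A T cell needs a signal from its antigen receptor and a second, costimulatory signal to divide and survive. CD28 is present on resting T cells and gives that second signal at the first contact, whereas OX40 (Tnfrsf4), CD137 (Tnfrsf9) and GITR (Tnfrsf18) are known to be induced by activation and to act on survival through TRAF adaptors and NF-kB. Regulatory T cells of the gut are also known to carry much OX40 and GITR, and CD226 shares its ligands with the inhibitory receptor TIGIT.

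Libraries held between 6765529 and 17860611 reads in genes. The 8 genes of the CD4 T cell list (Cd4, the CD3 chains, Thy1, Ptprc and Lat) were all above 1 TPM on average in each group, and their summed level ran from 1611 to 2197 TPM over the 28 libraries, so the labelled cell type was matched by its markers. TPM measures a transcript relative to all transcripts of its library, so a large gain elsewhere lowers it. Histone genes took 3.79% to 9.24% of summed TPM in the isotype libraries and 23.8% to 26.8% in SPF aCD3, and in the same comparison the median log2 fold change of all genes was -0.35. Median-of-ratios scaling, which sets each library by its typical gene, brought that median to -0.01, and receptor calls that differed are given both ways, as are counts of the pathway lists in SPF mice. In GF aCD3 the histone share was 23.1% to 25.97% in replicates M1, M2 and M5 and 5.39% to 7.46% in F1, M3 and M4. In bulk RNA, fewer cells of a type and less RNA per cell cannot be told apart.

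Of the 8 genes, 5 lie on chromosome 4 (mouse build mm10), and Tnfrsf4 and Tnfrsf18 are neighbours on the plus strand, 9733 bases apart. Tnfrsf4 (NM_011659) spans chr4:156013695-156016589 and Tnfrsf18 (NM_009400) chr4:156026322-156028894. Tnfrsf9 (NM_001077509) spans chr4:150927999-150946102 and Tnfrsf25 (NM_033042) chr4:152116343-152120119, both on the plus strand, while Tnfrsf1b (NM_011610) spans chr4:145212368-145246870 on the minus strand. Cd27 (NM_001286753) spans chr6:125232622-125237027 on the minus strand and Cd28 (NM_007642) chr1:60746388-60773359 on the plus strand.

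The 250 bases upstream of the table's transcript start are shown for the 4 receptors that rose with aCD3 in SPF mice and for Tnfrsf25, which fell, since these genes moved together or in opposite directions. The sequences come from a table of RefSeq promoters (build GRCm38.p6), in which 6 of the 8 genes were matched, and run 5′ to 3′ on the gene's strand. Capitals mark matches on either strand to the AP-1 site TGANTCA and to the NF-kB site, which share no base here.
Tnfrsf4, chr4:156013445-156013694 (+): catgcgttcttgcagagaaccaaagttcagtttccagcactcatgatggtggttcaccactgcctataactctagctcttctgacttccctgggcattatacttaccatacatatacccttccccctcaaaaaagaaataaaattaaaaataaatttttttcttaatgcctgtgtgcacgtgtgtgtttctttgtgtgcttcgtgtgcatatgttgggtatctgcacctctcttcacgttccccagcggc
Tnfrsf9, chr4:150927749-150927998 (+): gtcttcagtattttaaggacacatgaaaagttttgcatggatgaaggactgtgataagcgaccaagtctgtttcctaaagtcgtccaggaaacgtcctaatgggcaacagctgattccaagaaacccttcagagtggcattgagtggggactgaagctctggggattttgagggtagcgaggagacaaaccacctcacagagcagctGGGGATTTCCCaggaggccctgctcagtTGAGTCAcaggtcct
Tnfrsf18, chr4:156026072-156026321 (+): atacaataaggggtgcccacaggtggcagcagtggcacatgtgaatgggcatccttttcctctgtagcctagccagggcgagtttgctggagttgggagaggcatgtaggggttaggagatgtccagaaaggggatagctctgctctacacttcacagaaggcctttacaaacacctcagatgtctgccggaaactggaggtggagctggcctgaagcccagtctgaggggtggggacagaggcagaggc
Cd27, chr6:125237028-125237277 (-): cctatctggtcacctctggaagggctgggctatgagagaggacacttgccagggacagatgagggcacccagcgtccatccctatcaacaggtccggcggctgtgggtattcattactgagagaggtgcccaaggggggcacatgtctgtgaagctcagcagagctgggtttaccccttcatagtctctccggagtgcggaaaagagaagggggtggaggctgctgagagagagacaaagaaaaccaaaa
Tnfrsf25, chr4:152116093-152116342 (+): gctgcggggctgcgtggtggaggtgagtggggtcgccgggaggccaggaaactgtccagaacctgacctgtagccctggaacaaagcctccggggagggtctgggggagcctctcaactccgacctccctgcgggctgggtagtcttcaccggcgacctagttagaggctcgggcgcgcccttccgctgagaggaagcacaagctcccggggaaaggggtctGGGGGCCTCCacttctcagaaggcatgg
In Tnfrsf9 the capitals hold 2 overlapping NF-kB matches, at 43 to 34 and at 42 to 33 bases before the start, and 1 AP-1 match at 15 to 9 bases before it. Tnfrsf25 held 1 NF-kB match, 28 to 19 bases before the start, and the windows of Tnfrsf4, Tnfrsf18 and Cd27 held neither motif, nor did that of Tnfrsf1b. The table also gives a second start for Tnfrsf9, 7844 bases away, and for Tnfrsf25, 409 bases away, and the 250 bases before each held 0 AP-1 and 0 NF-kB matches. Over 32851 RefSeq promoters, 6.75% held the AP-1 letters and 7.25% the NF-kB motif. The short NFAT core GGAAA, which can lie inside an NF-kB match and is not in capitals, occurred 1 time upstream of Tnfrsf4, 3 times upstream of Tnfrsf9, 2 times upstream of Tnfrsf18, 1 time upstream of Cd27 and 2 times upstream of Tnfrsf25, and 55.6% of promoters held it. A match describes letters only; binding was not measured.

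The comparison of aCD3 with isotype in SPF mice asks how engaging CD3 altered receptor transcripts in colonised animals. Tnfrsf4, Tnfrsf9, Tnfrsf18 and Cd27 rose, Cd226 and Tnfrsf25 fell, Cd28 fell in TPM but not after median-of-ratios scaling, and Tnfrsf1b did not pass the test. That made 7 of 8 called by limma, 4 higher and 3 lower, where 64.8% of all tested genes were called, 14.2% higher and 50.7% lower. After median of ratios 6 were called, 4 higher and 2 lower, against 59.9%, 30.6% and 29.3% of all genes. In 4 receptors all aCD3 libraries lay above all isotype libraries and in 2 all lay below, patterns found in 8.57% and 33.4% of tested genes.

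Tnfrsf4 encodes OX40, the receptor of OX40 ligand, which prolongs the survival of activated CD4+ T cells. It ran from 55.8 to 74.9 TPM in SPF isotype (median 70.2) and from 369 to 489 TPM in SPF aCD3 (median 397). Every aCD3 library was thus several times above every isotype library. The log2 fold change was 2.62 (SE 0.38, limma adjusted p = 6.25e-06), higher in 6 of 6 libraries.

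Tnfrsf9 encodes CD137, a receptor of activated T cells. It ran from 6.37 to 10.3 TPM in SPF isotype (median 9.60) and from 20.3 to 37.6 TPM in SPF aCD3 (median 28.1). The groups did not overlap, although the gene stayed the least abundant of the 4 that rose. Its log2 fold change was 1.55 (SE 0.30, limma adjusted p = 9.73e-05).

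Tnfrsf18 encodes GITR, known for its high level on regulatory T cells. It ran from 65.4 to 107 TPM in SPF isotype (median 83.5) and from 148 to 179 TPM in SPF aCD3 (median 160.2). The aCD3 libraries lay close together and above every isotype library. The rise was 0.88 on the log2 scale (SE 0.17, limma adjusted p = 8.45e-05), smaller than that of its chromosomal neighbour Tnfrsf4.

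Cd27 encodes the receptor of CD70, which is known on naive and memory T cells. It ran from 20.7 to 39.4 TPM in SPF isotype (median 27.3) and from 70.6 to 153 TPM in SPF aCD3 (median 116). The groups did not overlap, and the aCD3 libraries spread more widely than the isotype libraries. On the log2 scale it rose by 1.93 (SE 0.32, limma adjusted p = 2.28e-05). The whole Cd27 span is also covered by E130112N10Rik on the opposite strand, which ran from 13.4 to 24.3 TPM in SPF isotype and from 37.3 to 84.1 TPM in SPF aCD3. Whether the authors' counting used strand is not given in the sources used here, so reads of Cd27 and of this antisense gene cannot be told apart.

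Regulatory T cell and proliferation transcripts moved in the same comparison. Of 7 regulatory T cell genes 6 were tested and 3 were higher in SPF aCD3 (median 0.58), or 5 after median of ratios (median 0.96), where 14.2% and 30.6% of all genes were higher. The list had a summed level of 49.5 to 65.3 TPM in SPF isotype and 69.9 to 101 TPM in SPF aCD3, and no gene of the list was at 0 in every library. Foxp3, which defines these cells, was at 0.53 on the log2 scale (SE 0.34, limma adjusted p = 0.181), and Il2ra, the interleukin 2 receptor alpha chain that activation also induces, rose by 1.07 (SE 0.26, adjusted p = 0.000883). Ikzf2, a transcription factor of regulatory T cells, was at -0.12 (SE 0.22, adjusted p = 0.655). All 10 proliferation genes were higher, and their sum went from 108 to 232 TPM in isotype to 989 to 1194 TPM in aCD3. The part of either in the rise of Tnfrsf4, Tnfrsf9, Tnfrsf18 and Cd27 was not tested.

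Cd226 encodes DNAM-1, an activating receptor of T and NK cells, and the gene (NM_178687) spans chr18:89197427-89270327 on the plus strand. It ran from 45.9 to 67.9 TPM in SPF isotype (median 56.6) and from 6.41 to 7.92 TPM in SPF aCD3 (median 7.22). The aCD3 libraries were tightly grouped far below the isotype libraries. The log2 fold change was -2.81 (SE 0.29, limma adjusted p = 3.85e-07), the largest of the 8 in size on the TPM scale. After median of ratios it was -2.43, smaller in size than the 3.04 of Tnfrsf4. Of 6 genes of NK or innate lymphoid cells, which also carry CD226, 4 were lower and 1 higher in SPF aCD3, where 50.7% and 14.2% of all genes were, with sums of 35.5 to 50.4 TPM in isotype and 12.8 to 21.6 TPM in aCD3. No gene of that list was at 0 in every library, and its part in the fall of Cd226 was not tested.

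Tnfrsf25 encodes DR3, a death domain receptor that costimulates T cells when it binds TL1A. It ran from 15.2 to 25.2 TPM in SPF isotype (median 16.7) and from 1.66 to 11.7 TPM in SPF aCD3 (median 7.82). The groups did not overlap, but the values rest on few reads, 90 to 177 per isotype library and 10 to 82 per aCD3 library. It fell by 1.34 on the log2 scale (SE 0.37, limma adjusted p = 0.00308).

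Cd28 ran from 178 to 287 TPM in SPF isotype (median 272) and from 157 to 220.2 TPM in SPF aCD3 (median 179.6). The ranges overlapped, with 3 of 6 aCD3 libraries below all isotype libraries. The log2 fold change was -0.46 (SE 0.14, limma adjusted p = 0.00536), close to the shift of the median gene, and after median of ratios it was -0.03 (SE 0.09, 95% interval -0.22 to 0.15, adjusted p = 0.768). Tnfrsf1b, which encodes the TNF receptor TNFR2, ran from 62.4 to 90.5 TPM in isotype (median 78.9) and from 54.2 to 76.4 TPM in aCD3 (median 67.5), again overlapping. The value of -0.24 on the log2 scale (SE 0.14, 95% interval -0.53 to 0.05, limma adjusted p = 0.14) turned to 0.18 after median of ratios (SE 0.10, adjusted p = 0.111).

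**Figure D1:**
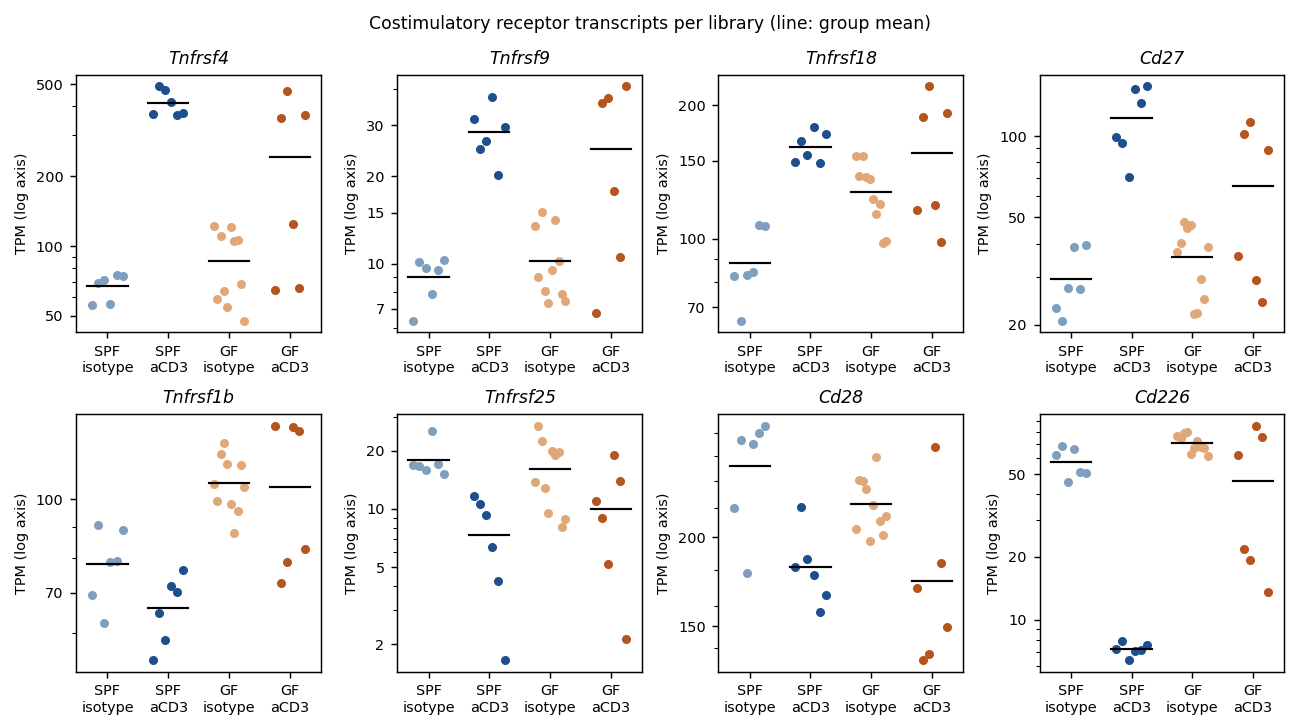
TPM of each receptor in every library on log axes, with SPF in blue and GF in orange, each point a library and each line a group mean. Cd226 sits between 6.41 and 7.92 TPM in the 6 SPF aCD3 libraries, whereas the 6 GF aCD3 libraries spread from 13.6 to 85.5 TPM.

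Levels of different genes were compared as reads per kilobase of exon at a depth of 1000000 reads in genes, because the deposited TPM divides by the whole genomic span. Whether reads in introns were counted is not given in the sources used here, and a long gene such as Cd226 would gain from them on this scale. In SPF isotype, Cd226 (245 ± 31.01, SD, n = 6) and Cd28 (227 ± 29.9) were the most abundant, and their ranges overlapped. Tnfrsf1b followed at 103 ± 9.94, apart from its neighbours on both sides. Tnfrsf18 (28.02 ± 5.28), Tnfrsf4 (27.7 ± 4.19) and Cd27 (22.9 ± 5.81) overlapped in range, as did Tnfrsf9 (11.3 ± 2.04) and Tnfrsf25 (6.13 ± 1.15) below them.

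In SPF aCD3 that order was rearranged on the same exonic scale. Tnfrsf4 (222 ± 25.3, n = 6) stood beside Cd28 (214 ± 20.8), with overlapping ranges. Cd27 (118 ± 33.7) and Tnfrsf1b (114 ± 14.3) overlapped next, followed by Tnfrsf18 (66.5 ± 4.14), which overlapped neither neighbour. Tnfrsf9 (46.3 ± 9.49) and Cd226 (40.4 ± 2.28) overlapped, and Tnfrsf25 was lowest at 3.28 ± 1.74. Cd226 thus went from the highest mean of the 8 to the seventh, and Tnfrsf4 from the fifth to the highest.

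The same comparison in germ-free mice gave weaker evidence, and its calls sat at the threshold. Tnfrsf9 was higher and was the only receptor called, 1 of 8 by limma, where 7.08% of all tested genes were called, 2.46% higher and 4.61% lower, and the smallest adjusted p of any gene was 0.0481. Tnfrsf9 ran from 7.33 to 15.1 TPM in GF isotype (median 9.25) and from 6.79 to 40.9 TPM in GF aCD3 (median 26.8). Of the 6 aCD3 libraries 4 lay above all isotype libraries and 1 below. The log2 fold change was 0.91 (SE 0.28, limma adjusted p = 0.0493).

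The other 7 receptors did not pass on the TPM scale, 3 of them at adjusted p-values just above the threshold. The log2 value was 1.05 for Tnfrsf4 (SE 0.35, limma adjusted p = 0.056), -0.86 for Cd226 (SE 0.27, adjusted p = 0.0503) and -0.40 for Cd28 (SE 0.13, adjusted p = 0.0522). After median of ratios, Cd226 passed at -0.70 (SE 0.21, adjusted p = 0.0443), where 9.73% of genes did. Cd27 had 0.62 (SE 0.30, adjusted p = 0.135). The remaining values were -0.64 for Tnfrsf25 (95% interval -1.35 to 0.07), 0.24 for Tnfrsf18 (95% interval -0.08 to 0.55) and -0.06 for Tnfrsf1b (95% interval -0.33 to 0.21), the last turning to 0.11 after median of ratios.

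The GF aCD3 libraries differed widely among themselves. Tnfrsf4 was at 64.4 TPM in replicate F1, 358 in M1, 468 in M2, 125 in M3, 66.0 in M4 and 368 in M5, beside 47.6 to 122 TPM in GF isotype (median 87.1). Cd226 was at 61.5 TPM in F1, 21.8 in M1, 19.4 in M2, 85.5 in M3, 75.4 in M4 and 13.6 in M5, beside 61.2 to 79.8 TPM in GF isotype (median 69.7). M1, M2 and M5 were thus above the isotype range for Tnfrsf4 and below it for Cd226. F1 and M4 were within it for both genes, and M3 was above it for both.

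Cd27 and Tnfrsf18 lay above the isotype range in M1, M2 and M5 and within it in F1, M3 and M4. Cd27 was at 102, 112 and 89.0 TPM in M1, M2 and M5 and at 36.1, 29.4 and 24.4 TPM in F1, M3 and M4, beside 21.9 to 47.9 TPM in GF isotype (median 38.0). Tnfrsf18 was at 188, 221 and 193 TPM in M1, M2 and M5 and at 116, 119 and 98.3 TPM in F1, M3 and M4, beside 98.01 to 154 TPM (median 129.8). Tnfrsf1b lay outside the GF isotype range of 88.0 to 124 TPM in all 6 libraries, below it in M1, M2 and M5 (72.5, 78.5 and 82.7 TPM) and above it in F1, M3 and M4 (132, 132 and 129 TPM).

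Tnfrsf25 and Cd28 were less evenly placed. Tnfrsf25 ran from 2.12 to 18.9 TPM in GF aCD3 (median 9.98), with M2 and M5 below the isotype range of 8.03 to 26.9 TPM (median 16.3). Cd28 ran from 135 to 267 TPM (median 159.7), with M3 above the isotype range of 197 to 259 TPM (median 218) and the other 5 libraries below it. Counted over the 8 receptors, M2 and M5 had none within the GF isotype range and M1 had 1, whereas M4 had 6 within it, F1 5 and M3 3. Over all tested genes the share within that range was 38.6% in M1, 38.3% in M2 and 35% in M5. It was 84.6% in F1, 76.5% in M3 and 86.1% in M4. M1, M2 and M5 thus parted from F1 and M4 over genes in general too. M3 was near F1 and M4 over all genes, although only 3 of the 8 receptors were within the range in M3.

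The summed proliferation list was 1142, 1373 and 1173 TPM in M1, M2 and M5 and 158, 404 and 210.4 TPM in F1, M3 and M4, beside 106 to 346 TPM in GF isotype. The high histone shares were in M1, M2 and M5 too. Other marker lists separated the same libraries without overlap. Summed levels in M1, M2 and M5 were higher for regulatory T cell genes (92.2 to 134 TPM against 36.5 to 77.99 in F1, M3 and M4), CD8 T cell genes (9.59 to 13.01 against 3.47 to 7.56) and myeloid genes (121 to 137 against 73.5 to 94.5). They were lower for NK or innate lymphoid genes (16.5 to 18.7 TPM against 23.6 to 29.5), B or plasma cell genes (8.34 to 9.79 against 21.4 to 102) and naive or central memory genes (155 to 369 against 438 to 517). The same held for stromal or endothelial genes (3.65 to 5.01 TPM against 9.48 to 11.9), epithelial genes (5.14 to 8.47 against 10.04 to 29.7) and the CD4 T cell list (1611 to 1766 against 1887 to 2035), whereas the erythroid sums overlapped. Their part in the spread of the receptors was not tested. Leaving out M1, M2 or M5 left 0 of 8 receptors called by limma, where 0 of all 12182 genes were. Tnfrsf9 was then at limma adjusted p = 0.163, 0.177 and 0.181. Leaving out F1 gave 4 called, where 29.8% of all genes were, and leaving out M3 or M4 gave 5, where 34.6% and 31.7% were. Over all 16 GF libraries left out in turn, 13 gave 0 receptors and 0 genes of any kind. So did each of the 12 SPF libraries, which enter through the shared estimate of the spread and the sex term, and without SPF isotype replicate F3 Tnfrsf9 was at adjusted p = 0.0546.

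**Figure D2:**
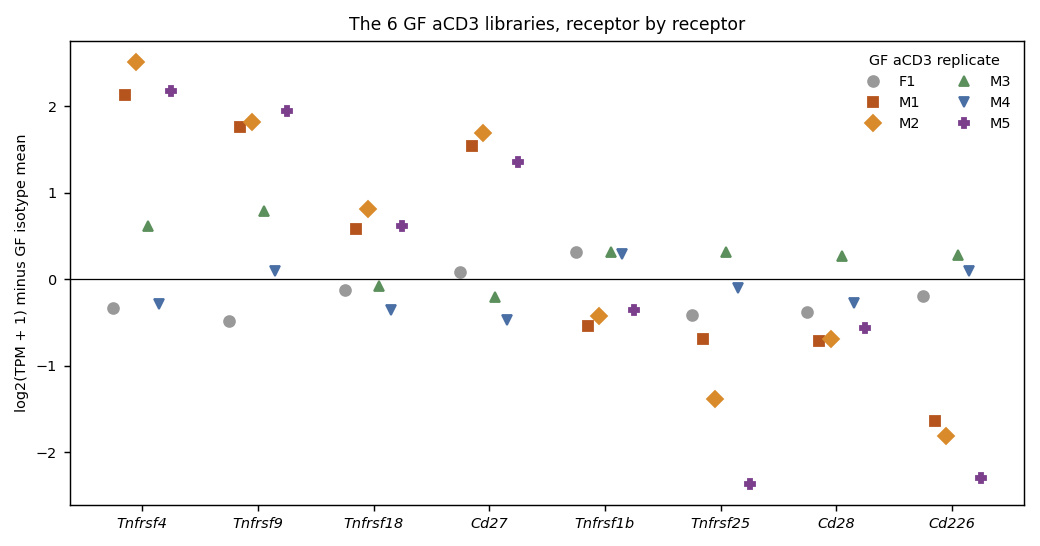
Each GF aCD3 library's log2(TPM + 1) minus the GF isotype mean, for the 8 receptors, with symbols for the 6 replicates. M1, M2 and M5 lie at 2.13 to 2.51 for Tnfrsf4 and at or below -1.64 for Cd226, while F1 and M4 lie near 0 for Cd226.

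GF libraries carried sample numbers 25 to 33 or 48 to 54 in the column names, and each range held both treatments. Within 25 to 33 the log2 fold change was 1.31 for Tnfrsf4, 1.29 for Tnfrsf9, 1.48 for Cd27 and -1.02 for Cd226. Within 48 to 54 it was 0.91, 0.74, 0.20 and -0.65 in the same order. No receptor was called by limma within either range, and the direction was the same in both for these 4 genes.

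Whether the aCD3 effect differed between germ-free and SPF mice was tested as an interaction. Cd226 was the only receptor called, 1 of 8 where 3.48% of tested genes were called, 2.44% higher and 1.04% lower: its fall was smaller in GF, by 1.95 on the log2 scale (SE 0.40, 95% interval 1.13 to 2.76, limma adjusted p = 0.0162). Without GF aCD3 replicate F1 the difference was 1.78 and missed the threshold (limma adjusted p = 0.0597). In that fit 0.263% of all genes were called. Differences for Tnfrsf4 (-1.57, SE 0.51, adjusted p = 0.0639), Cd27 (-1.31, SE 0.44, adjusted p = 0.0666) and Tnfrsf18 (-0.65, SE 0.23, adjusted p = 0.0747) did not pass. After median of ratios these 3 passed, at adjusted p = 0.0464, 0.0448 and 0.0475, where 11.7% of genes did. They also passed without GF aCD3 replicate M1, M2 or M5, at differences of -1.75, -1.82 and -1.76 for Tnfrsf4, -1.48, -1.50 and -1.44 for Cd27 and -0.71, -0.75 and -0.72 for Tnfrsf18, and without SPF isotype replicate F3 Tnfrsf4 passed at -1.63. In these 4 fits 16.8%, 20.4%, 26.2% and 17% of all genes were called, in the same order.

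The other 4 receptors showed no called difference of effect. It was -0.64 for Tnfrsf9 (95% interval -1.48 to 0.19), 0.70 for Tnfrsf25 (-0.35 to 1.74), 0.18 for Tnfrsf1b (-0.22 to 0.58) and 0.06 for Cd28 (-0.32 to 0.44). Tnfrsf1b and Cd28 changed sign after median of ratios, to -0.07 and -0.19.

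**Figure D3:**
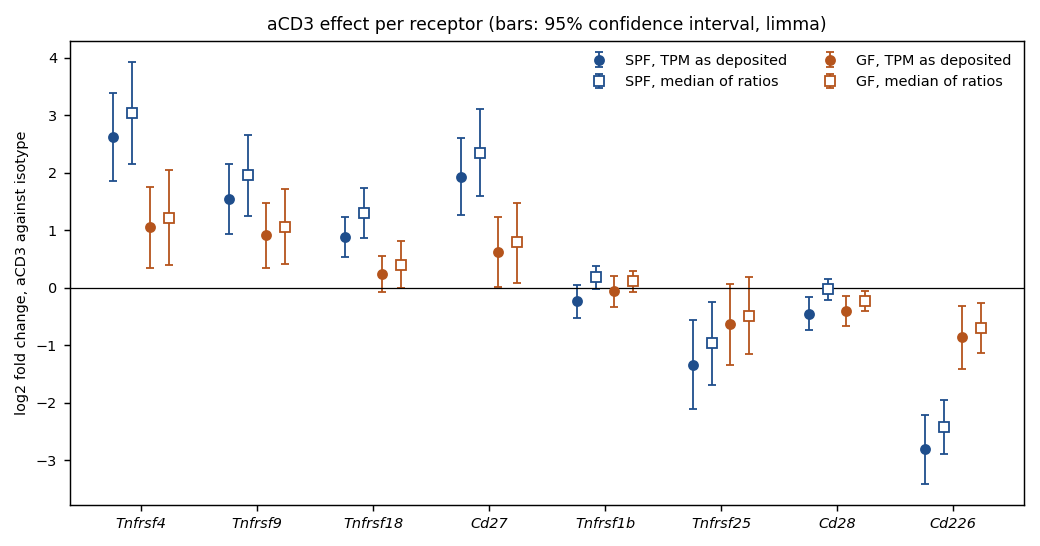
Log2 fold change of aCD3 against isotype for each receptor in SPF (blue) and GF (orange) mice, with limma's 95% confidence intervals, from deposited TPM (filled) and after median-of-ratios scaling (open). Among the filled symbols Cd226 shows the widest gap between SPF (-2.81) and GF (-0.86), whereas among the open ones the gap of Tnfrsf4 (3.04 and 1.22) is wider than that of Cd226 (-2.43 and -0.70).

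Under isotype control, 2 of the 8 receptors were called different between germ-free and SPF mice. Tnfrsf18 (0.53, SE 0.15, limma adjusted p = 0.0311) and Tnfrsf1b (0.44, SE 0.13, adjusted p = 0.0335) were higher in GF, where 7.17% of tested genes were called, 6.42% higher and 0.755% lower. Of the 10 GF libraries, 8 lay above all SPF libraries for Tnfrsf18 and 9 for Tnfrsf1b. Neither passed after median of ratios, at 0.37 (adjusted p = 0.415) and 0.29 (adjusted p = 0.0901), whereas Cd28 then passed at -0.32 (SE 0.08, adjusted p = 0.0426), among 1.63% of genes. Without SPF isotype replicate F3 neither passed, at 0.52 (adjusted p = 0.0831) and 0.38 (adjusted p = 0.121), nor did either without SPF isotype replicate F1 or GF isotype replicate F3. SPF libraries were numbered 1 to 12 and GF libraries from 25 on, so colonisation and number range cannot be told apart in any GF against SPF comparison.

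Markers of other cells differed between the isotype groups as well. Of 4 stromal or endothelial genes tested 3 were lower in GF (median -2.15), with sums of 7.66 to 13.9 TPM in GF and 15.01 to 50.8 TPM in SPF. Of 4 B or plasma cell genes tested 1 was lower, with sums of 11.3 to 119.6 TPM in GF and 96.6 to 275 TPM in SPF. Of 7 naive or central memory genes 2 were lower, with sums of 386 to 703 TPM in GF and 652 to 984 TPM in SPF, and of 6 NK or innate lymphoid genes 2 were lower, with sums of 18.4 to 59.3 TPM in GF and 35.5 to 50.4 TPM in SPF. These counts stand where 0.755% of all genes were lower, and they were the same after median of ratios. No gene of these lists was at 0 in every library of either isotype group, and their part in the values of Tnfrsf18 and Tnfrsf1b was not tested.

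Under aCD3, 4 of 8 receptors differed between GF and SPF where 53.3% of tested genes were called, 48.9% higher and 4.46% lower in GF. Tnfrsf4 (-1.29, SE 0.39, limma adjusted p = 0.008) and Cd27 (-1.07, SE 0.33, adjusted p = 0.00983) were lower in GF. Cd226 (2.25, SE 0.30, adjusted p = 3.99e-05) and Tnfrsf1b (0.62, SE 0.15, adjusted p = 0.00165) were higher, the last not after median of ratios (0.22, adjusted p = 0.0898), where Cd28 passed as lower (-0.51, SE 0.09, adjusted p = 0.000614) among 32.7% of genes. Cd226 was the receptor whose groups did not overlap, with all 6 GF libraries above all SPF libraries, as in 12.2% of tested genes. Without GF aCD3 replicate F1, Tnfrsf4 missed the threshold (-0.92, adjusted p = 0.0557), as it did with only the libraries of these 2 groups (-1.37, adjusted p = 0.0557). With array weights neither Tnfrsf4 (-0.89, limma adjusted p = 0.0632) nor Cd27 (-0.77, adjusted p = 0.0977) passed, where 32.5% of all genes did. Weights estimated gene by gene, added after the counts had been seen, put them at -0.35 (adjusted p = 0.394) and -0.37 (adjusted p = 0.374). With those weights 23.3% of all genes were called. In the same comparison 7 of 10 proliferation genes were lower in GF (median -1.04), where 4.46% of all genes were, or 9 after median of ratios (median -1.44), with sums of 158 to 1373 TPM in GF and 989 to 1194 TPM in SPF. Of 7 naive or central memory genes 4 were lower (median -1.38), or 5 after median of ratios (median -1.79), with sums of 155 to 517 TPM in GF and 371 to 682 TPM in SPF. Of 6 regulatory T cell genes tested 1 was higher and 1 lower (median -0.45), or 0 and 3 after median of ratios (median -0.77). Il2ra was at -0.86 (limma adjusted p = 0.00962) and Ikzf2 at 0.61 (adjusted p = 0.0264), while Foxp3 was at -0.21 (adjusted p = 0.633). No gene of these lists was at 0 in every library, and their part in the receptor differences was not tested. These comparisons share their aCD3 libraries with those above.

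Across the 28 libraries the receptors that rose with aCD3 followed each other, which describes the groups as much as the genes, since libraries share treatment and depth. Pearson's r on log2(TPM + 1) was 0.95 between Tnfrsf4 and Tnfrsf9, 0.84 between Tnfrsf4 and Cd27, and 0.78 between the neighbours Tnfrsf4 and Tnfrsf18. Cd226 ran opposite to them, at -0.89 with Tnfrsf4 and -0.87 with Cd27, and alongside Tnfrsf1b (0.74) and Tnfrsf25 (0.70). Among 7482 genes, those most like each receptor by r over the 28 libraries were Dck and Dlgap5 for Tnfrsf4 (0.98 each), Cip2a (0.95) and Ncapg (0.94) for Tnfrsf9, Nup205 (0.91) and Irf8 (0.90) for Tnfrsf18, and Slc16a3 (0.94) and Xdh (0.93) for Cd27. Those most like Cd226 were Nr3c1, the glucocorticoid receptor, and Atf2 (0.99 each), and those most like Tnfrsf1b were Dgat1 and Isy1 (0.95 each). Tuba4a and Nufip1 were closest to Tnfrsf25 (0.86 each), and Gpr183 (0.88) and Cpm (0.86) to Cd28.

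The other genes of the pathway were called lower more often than higher in SPF aCD3 on the TPM scale, as were all genes tested. Of 70 listed genes 63 were tested, and 7 were higher and 41 lower by limma, where 14.2% and 50.7% of all genes were, with a median log2 fold change of -0.58 beside -0.35 for all genes. After median of ratios 17 were higher and 28 lower, where 30.6% and 29.3% of all genes were, with a median of -0.19 beside -0.01. In GF, 3 were higher and 6 lower, where 2.46% and 4.61% of all genes were, with a median of -0.26 beside -0.15. After median of ratios these were 4 and 5, where 9.73% of all genes were called, with a median of -0.09 beside -0.01.

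Of 12 ligands 7 were tested in SPF, and 6 were lower and 0 higher (median -1.13), or 5 and 0 after median of ratios (median -0.71). Tnf, the cytokine bound by Tnfrsf1b, went from 81.0 ± 12.8 to 34.4 ± 7.61 TPM (SD, n = 6 each), a log2 fold change of -1.23 (limma adjusted p = 4.28e-06). Ltb, which encodes lymphotoxin beta, had means of 192 and 87.6 TPM (log2 fold change -1.13, SE 0.23, adjusted p = 0.0002).

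Of 17 other costimulatory or related receptors tested, 5 were higher and 6 lower (median -0.05), but 10 were higher and 5 lower after median of ratios (median 0.35). Tigit, the inhibitory receptor that shares ligands with Cd226, went from 45.4 ± 3.64 to 123 ± 12.4 TPM (1.41, limma adjusted p = 1.51e-05) while Cd226 fell. Ctla4, which competes with Cd28 for its ligands, went from 518 ± 111 to 1088 ± 90.8 TPM (1.10, adjusted p = 0.000102). Cd40lg, by which CD4+ T cells help B cells, went from 222 ± 34.6 to 29.2 ± 3.29 TPM (-2.88, adjusted p = 2.59e-06), and Tnfrsf10b, a death receptor, fell by 1.78 on the log2 scale.

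Of 12 TRAF and death domain adaptors 1 was higher and 8 lower (median -0.37), close to the shift of all genes, and after median of ratios 3 were higher and 3 lower (median 0.02). Siva1, whose product binds the tail of CD27, rose by 0.72 (limma adjusted p = 0.000893), while Birc2 and Birc3, ubiquitin ligases recruited by TRAF proteins, had -1.13 and -1.31. Of 13 genes of NF-kB output 11 were lower and 0 higher (median -0.71), or 8 and 1 after median of ratios (median -0.31). Among those lower were Map3k14, the kinase of the alternative NF-kB pathway (-2.24), and Tnfaip3, a feedback inhibitor (-1.32). Of 14 genes of CD28 and T cell receptor signalling 10 were lower and 1 higher (median -0.63), or 7 and 3 after median of ratios (median -0.24). Pik3r1, a regulatory subunit of PI3 kinase, had -1.56, and Akt1, a kinase downstream of it, 0.53.

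**Figure D4:**
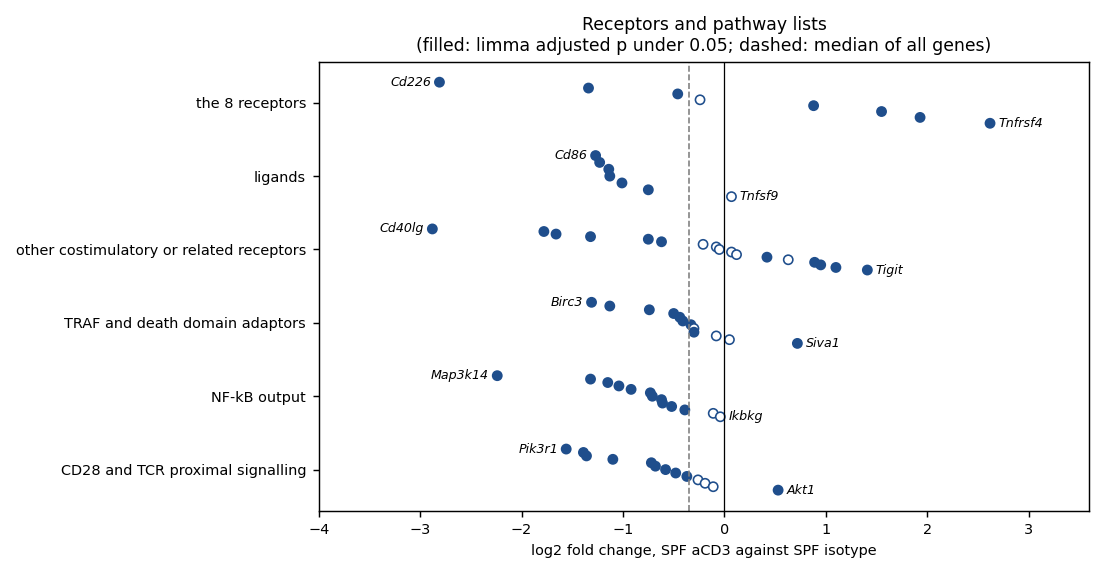
Log2 fold change of SPF aCD3 against SPF isotype for the 8 receptors and for the tested genes of each pathway list except 1 of the last list that is not reported here, filled where limma's adjusted p was under 0.05, with the median of all genes (-0.35) dashed. The receptors spread from -2.81 for Cd226 to 2.62 for Tnfrsf4, while the ligands and NF-kB genes lie mostly below 0.

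Markers of other cells were followed in the same comparison, where 14.2% of all genes were higher and 50.7% lower. Of 8 B or plasma cell genes 4 were tested and 2 were lower, a share close to that of all genes, with sums of 96.6 to 275 TPM in SPF isotype and 3.02 to 10.6 TPM in SPF aCD3, and none was at 0 in every library of a group. In isotype nearly all of that sum was Jchain, the joining chain of secreted antibodies (median 171 TPM in isotype and 0.716 TPM in aCD3), while Cd79b had medians of 6.65 and 4.92 TPM and Derl3 of 1.31 and 1.93 TPM. Cd27 and Tnfrsf1b are known on some of these cells. Of 8 myeloid genes 4 were tested, 1 higher and 1 lower, or 2 and 1 after median of ratios, with sums of 61.8 to 91.8 TPM in isotype, where Cd14 was at 0, and 118 to 151 TPM in aCD3. The higher sum came from Cd68 (median 7.15 and 77.1 TPM), whereas Fcer1g had medians of 8.42 and 2.61 TPM and Cst3 of 56.7 and 61.3 TPM. Of 8 stromal or endothelial genes 4 were tested and 4 were lower (median -1.78), with sums of 15.01 to 50.8 TPM in isotype and 3.00 to 6.04 TPM in aCD3, where Col1a2 was at 0. Hba-a1, Hba-a2, Hbb-bs and Hbb-bt, the haemoglobin genes of the erythroid list, were at 0 in every SPF aCD3 library, and the list summed to 2.29 to 10.2 TPM in isotype and 0.716 to 1.28 TPM in aCD3. Of 7 naive or central memory genes 3 were higher and 2 lower (median -0.05), with sums of 652 to 984 TPM in isotype and 371 to 682 TPM in aCD3. Of 2 CD8 T cell genes 1 was higher, with sums of 5.68 to 13.5 TPM in isotype and 9.75 to 23.8 TPM in aCD3. Of 6 epithelial genes tested 1 was lower, with sums of 6.84 to 16.1 TPM in isotype and 4.76 to 9.60 TPM in aCD3. No gene of these 3 lists was at 0 in every library of either group. Their part in the receptor values was not tested.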

How the data were processed

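RNA of 28 bulk libraries in 4 groups was analysed. Per the file headers, the deposited TPM values were computed by the authors with HOMER's analyzeRepeats.pl over RefSeq transcripts of mm10, condensed by gene. The column names carry STAR's default file ending, and versions and strand use are not given in the sources used here. The length column equals the genomic span in 99.24% of rows. TPM times length gave whole reads in 100.0% of low values (tolerance 0.05). Another 26 value columns matched no sample and were not used.

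Genes with at least 1 TPM in at least 6 libraries were tested with limma 3.58.1 (R 4.3.3) on log2(TPM + 1), which understates the change of low genes, fitting group means and sex over 28 libraries. P-values were adjusted by Benjamini-Hochberg over 12182 genes in each of the comparisons, with a threshold of 0.05. Medians and counts describe the lists; no set test was run. The receptors and lists were chosen with earlier results of these data known. Named beside the 8 receptors were, per pathway list, up to 2 genes with the highest and 2 with the lowest called SPF fold change at a mean of at least 5 TPM, and the 2 genes most like each receptor; 1 gene under this rule is not reported here. Foxp3, Il2ra, E130112N10Rik and the genes of marker lists are given where they touch a result, E130112N10Rik after its values were seen. Alternatives changed pseudocount, filter, scaling, model, sex term, replicate block and library set.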

Additional observations from a re-analysis of the deposited data

Results flagged for a closer look

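Over the 8 receptors and 4 groups, 32 sets of values were searched for a library far from the rest of its group. There were 2, where chance gives about 1 in 20 sets, or 1.6. Tnfrsf25 was at 25.2 TPM in SPF isotype replicate M1, while the other 5 libraries ran from 15.2 to 17.1 TPM. Cd28 was at 267 TPM in GF aCD3 replicate M3, while the other 5 ran from 135 to 184 TPM. The aCD3 effect on Cd226 differed between GF and SPF mice by 1.95 on the log2 scale in limma's interaction test.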

How the results depend on the processing

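In SPF aCD3 against SPF isotype, Tnfrsf4, Tnfrsf9, Tnfrsf18, Cd27, Tnfrsf25 and Cd226 were called under all 19 listed alternatives and Cd28 under 16, failing after median of ratios, on TPM without Rn45s and histone genes, and under voom on whole reads. Tnfrsf1b turned positive there, at 0.18, 0.028 and 0.14, but was called lower with only its own groups (-0.24, adjusted p = 0.0348) and with gene-by-gene weights (-0.24, adjusted p = 0.0453), for 8 receptors. Leaving out each of its 12 libraries in turn gave 7426 to 8060 genes and 7 receptors. For each comparison 7 of the 28 libraries were listed to be left out, SPF isotype replicate F3 and the 6 of GF aCD3, and the others were added after the results had been seen.

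GF aCD3 against GF isotype was the least stable: 862 genes and 1 receptor were called, and leaving out 1 of its 16 libraries gave 0 to 4213 genes and 0 to 5 receptors, with 0 of both in 13 cases; the other 3 were GF aCD3 replicates F1, M3 and M4. Leaving out any of the 12 SPF libraries also gave 0 of both. It gave 0 genes and 0 receptors with a pseudocount of 0.1, with no filter, with only its own groups, and with a sample number term, and 1 gene and 0 receptors within numbers 25 to 33 or 48 to 54 (added after seeing the data). Without a sex term it gave 2472 genes and 4 receptors. Array weights gave 4006 genes and 5 receptors, but limma's default estimate stopped before it converged. Weights estimated gene by gene, added after the counts from both estimates had been seen, gave 7063 genes and 8 receptors. Receptors numbered 2 with a pseudocount of 5 (933 genes), after median of ratios (1185) or with voom (952), 3 after quantile normalization (1189) and 4 at a filter of 5 TPM (1117 of 9117 genes tested). Tnfrsf1b turned positive at 0.11 (median of ratios), 0.00014 (quantile), 0.063 (without Rn45s and histone genes), 0.085 (voom), 0.016 (own groups) and 0.015 (numbers 48 to 54), and ran from -0.17 to 0.031 with 1 library left out, above 0 without GF aCD3 replicate M1 (0.031) or M2 (0.0091).

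In GF against SPF isotype, 874 genes and 2 receptors became 199 and 1 after median of ratios, 178 and 0 after quantile normalization and 375 and 1 with voom. There were 2369 genes without Rn45s and histone genes, 1423 with array weights and 1405 with weights estimated gene by gene. With only its own groups there were 1812 genes and 3 receptors, Cd226 passing as higher in GF (0.30, SE 0.09, limma adjusted p = 0.03). Leaving out 1 of its own 16 libraries gave 325 (without SPF isotype replicate F3) to 990 genes and 0 to 2 receptors. Leaving out 1 of the other 12 gave 787 to 1137 genes and 2 receptors. Without SPF isotype replicate F1 there were 569 genes. Receptors numbered 0 without SPF isotype F1 or F3 or GF isotype F3, and 1 without SPF isotype F2 or M2 or GF isotype F1, F2, F4, F5 or M4. Tnfrsf9 turned to -0.0012 after median of ratios and -0.024 after quantile normalization. In GF against SPF aCD3, 6496 genes became 3986 after median of ratios and 3348 after quantile normalization. Array weights gave 3964 genes and 2 receptors and gene-by-gene weights 2838 and 2. Voom gave 4348 genes and 6 receptors, with Tnfrsf9 passing at -0.89 (limma adjusted p = 0.0461). Leaving out 1 of its 12 libraries gave 4880 to 7231 genes and 3 to 4 receptors. Tnfrsf18 turned to 0.022 with array weights and 0.23 with gene-by-gene weights, and Tnfrsf9 to 0.15 with the latter.

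For the difference of the aCD3 effect, 424 genes became 774 and 273 with pseudocounts of 0.1 and 5, 233 with no filter, 1423 after median of ratios, 791 after quantile normalization, 171 with array weights, 48 with gene-by-gene weights and 1631 with voom. Receptors numbered 4 after median of ratios and with voom, and leaving out 1 of the 28 libraries gave 32 to 3187 genes and 0 to 4 receptors, 24 of these counts of genes lying over 1.5 times from 424. Tnfrsf1b turned to -0.069 (median of ratios), -0.05 (voom) and -0.14 (gene-by-gene weights). Cd28 turned to -0.19 (median of ratios), -0.09 (without Rn45s and histone genes), -0.18 (voom) and -0.091 (gene-by-gene weights), and ran from -0.067 (without GF aCD3 replicate M3) to 0.17 with 1 library left out. The cause of these changes was not tested.

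Replicate names such as F1 recur across groups. Of 32 same-named pairs 5 had deviations correlated above 0.1 (r from -0.208 to 0.198). Differently named pairs were not compared, so these values cannot decide whether the names pair the samples. With the name as replicate block, 7794 genes were called in SPF, 0 genes and 0 receptors in GF aCD3 against isotype, 658 genes and 1 receptor in GF against SPF isotype, 5715 in GF against SPF aCD3 and 162 for the difference of effects. Under the replicate block Tnfrsf25 turned to 0.14 in GF against SPF isotype. Read depth limited Tnfrsf25 most, with as few as 10 reads in a library, and such reads are not counts of separate molecules.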

Other observations

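Sex was compared after the values had been seen by sex letter. Within SPF, limma called 0 of 12182 genes for a difference of the aCD3 effect between males and females, with 932 at an unadjusted p under 0.05. Among the receptors, the difference for Cd28, male minus female, was -0.57 on the log2 scale (SE 0.26, limma adjusted p = 0.63) and did not pass. Tnfrsf25 was at 11.7, 10.7 and 9.27 TPM in the 3 female SPF aCD3 libraries and at 6.36, 4.24 and 1.66 TPM in the 3 male ones, and its difference was -1.47 (SE 0.72, adjusted p = 0.655). Across all groups 13 genes differed by sex, and none of the 8 receptors was among them.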
